A study of Mus musculus with 6 samples.

Results

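All genes that encode a collagen alpha chain were examined by cell class in mouse quadriceps 7 days after volumetric muscle loss, the surgical removal of a full-thickness plug of muscle. A gene was taken when its symbol read Col, a number, a and a number. The rule gave 44 of the 32285 genes in the count matrices, and it used no measured value. All animals were male wild-type C57BL/6 mice, 2 to 3 months old, and the left quadriceps was taken whole and digested with collagenase II and dispase II. The 3 groups were uninjured muscle, a subcritical defect of 2 mm and a critical defect of 3 mm, all at day 7. The cells of 4 animals per group were tagged with hashtag antibodies, pooled and run as 1 library, so group, pool and library cannot be told apart.

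Each collagen molecule is a triple helix of 3 alpha chains. Fibrillar chains (types I, II, III, V, XI and their relatives) assemble into the banded fibres that give tendon, fascia and scar their strength. FACIT chains (types IX, XII, XIV and others) decorate the surface of those fibres, basement membrane chains (types IV, XV and XVIII) form or anchor the sheets under endothelium and around muscle fibres, and type VI chains form beaded microfilaments near cells. In skeletal muscle, fibro-adipogenic progenitors (FAPs) are the resident mesenchymal cells best known for making interstitial matrix, tenocytes make tendon, and endothelial and mural cells share the basement membrane of the vessel wall. Chains need proline and lysine hydroxylation, the chaperone Hsp47 (Serpinh1), trimming of their propeptides and crosslinking by lysyl oxidases before they form stable fibres.

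The files held 2195 barcodes for uninjured, 3071 for subcritical and 3161 for critical muscle, with 5681346, 4954129 and 7138662 UMIs (molecules counted by their tags). After filtering, 2134, 2755 and 3012 cells remained. Libraries shared 10 to 16 cell barcodes by pair. The median mitochondrial share of UMIs was 0.186%, 0.188% and 0.375%. Clusters were named from marker genes, with every collagen chain left out of the clustering and of the markers. The FAP-like class held 158, 639 and 764 cells, the tenocyte-like class 20, 104 and 136, the endothelial-like class 1300, 598 and 632, the mural-like class (pericytes and smooth muscle) 247, 153 and 204, and the macrophage-like class 41, 822 and 757. Muscle fibre-like cells numbered 1, 5 and 5, so chains made by fibres were not measured here. The same class was not made of the same clusters everywhere: FAP-like cluster 10 had 0, 329 and 462 cells and cluster 11 had 158, 310 and 302. Endothelial-like cells came mostly from cluster 6 in uninjured muscle (729 cells) and from cluster 3 after injury (402 and 406 cells). Mural-like cells came mostly from the Myh11-rich cluster 7 in uninjured muscle (189 cells) and from the Rgs5-rich cluster 8 after injury (101 and 146 cells).

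Levels are CPM, the UMIs of a gene over all UMIs of the class in that library, scaled to the usual common total. With 1 library per group no test between groups can be made from them, so intervals are exact at 95% and cover counting error only. A chain is called higher or lower than in uninjured muscle at a 2-fold difference, and between wounds at a 1.5-fold difference, with a mean of at least 5 CPM and a pseudocount of 1 CPM. Only endothelial-like and macrophage-like cells carried enough hashtags to be tested between animals. All values in a series of 3 are given in the order uninjured, subcritical, critical unless stated.

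Chain transcripts made up 3.14%, 5.97% and 6.04% of all UMIs of FAP-like cells, and 5.61%, 7.72% and 7.81% of those of tenocyte-like cells. The share was 0.222%, 0.678% and 0.676% in endothelial-like cells and 0.289%, 1.06% and 1.68% in mural-like cells. It was 0.0101%, 0.160% and 0.107% in macrophage-like cells, a class that should lack most chains. FAP-like cells held 49.9%, 58.0% and 58.7% of all chain UMIs of their library, and tenocyte-like cells 17.5%, 16.4% and 18.8%. The FAP-like class was thus the main pool of chain transcripts in all 3 libraries. Chains made up a larger share of all transcripts in tenocyte-like than in FAP-like cells.

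Of the 44 chains, 28 had at least 100 UMIs over all kept cells and are described here by value, 11 had 20 to 99, and 5 (Col19a1, Col6a4, Col10a1, Col17a1 and Col25a1) had fewer than 20. Among the 28, the highest mean level over libraries lay in tenocyte-like cells for 12 chains, in FAP-like cells for 8, in endothelial-like cells for 3, in Schwann-like cells for 3 and in mural-like cells for 2. Tenocyte-like cells led for 6 of the 10 fibrillar chains, 3 of the 6 FACIT chains and 2 of the 4 type VI chains, and the 5 basement membrane chains were led by endothelial-like or mural-like cells. The small unnamed cluster 20 is left out of this ranking. It held more UMIs of Col2a1 than tenocyte-like cells, and more of Col9a2 and Col9a3 than Schwann-like cells, the classes that led for these chains. For 10 chains (Col1a1, Col1a2, Col3a1, Col11a1, Col12a1, Col14a1, Col22a1, Col4a2, Col6a1 and Col8a2) the intervals of the first and second class were apart in all 3 libraries. These intervals cover counting error only: the uninjured Col22a1 value came from 1 cell, and the Col4a2 lead changed with other settings. Some leads were close: for Col5a2 and Col6a2 the FAP-like and tenocyte-like intervals were apart in only 1 library. The FAP-like lead for Col5a1 and Col27a1 passed to tenocyte-like cells at a coarser clustering, with marker scores and with at least 1000 UMIs per cell. That for Col6a3 and Col8a1 did so at the coarser clustering. An unnamed cluster of shallow cells, cluster 9, had higher levels than any named class for several of these chains, among them Col1a1 (65578 CPM in the subcritical and 62014 CPM in the critical library), Col1a2, Col3a1, Col5a1, Col12a1 and Col6a3, and is left out of this ranking.

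**Figure D1:**
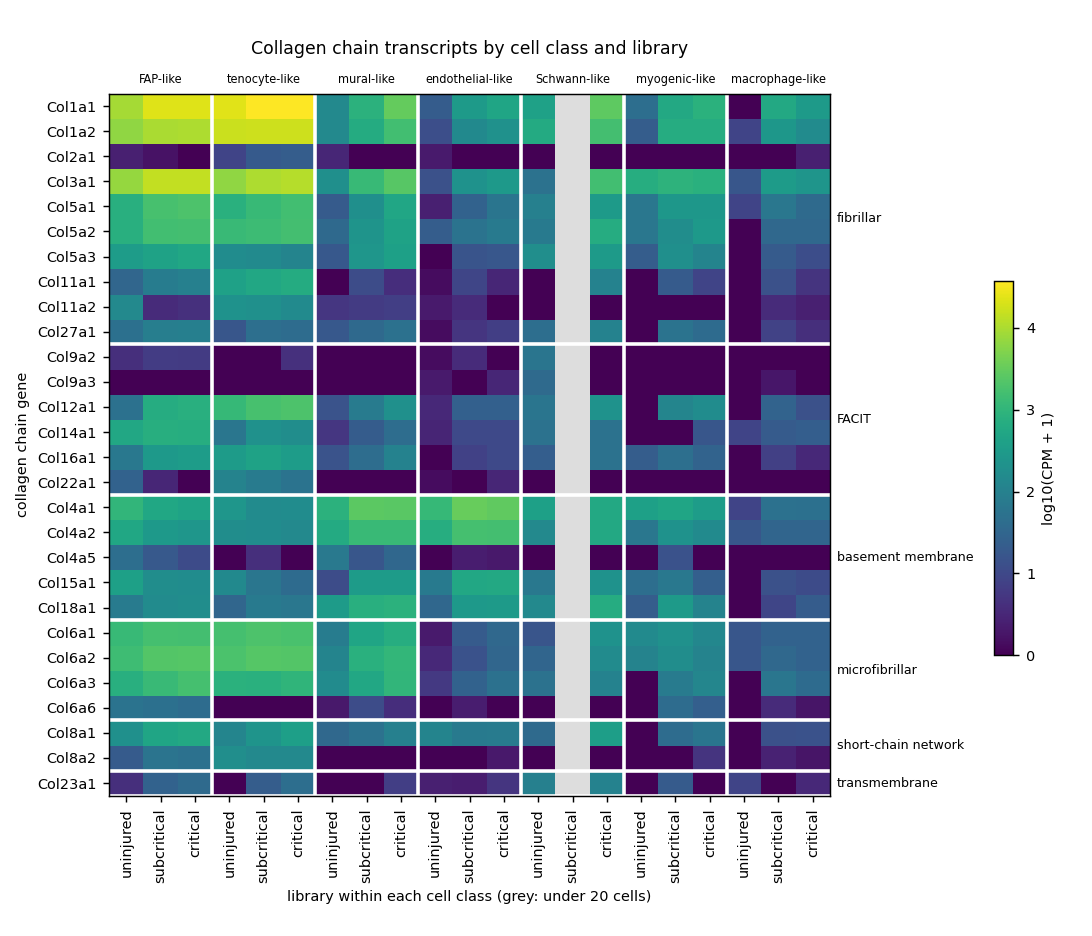
Heat map of the level, log10(CPM + 1), of the 28 described chains (rows, grouped by type) in 7 cell classes (blocks), each in the uninjured, subcritical and critical library (columns in that order); grey marks a class with fewer than 20 cells in the library. Brighter cells are higher: Col1a1, Col1a2 and the type VI chains Col6a1 and Col6a2 are brightest in FAP-like and tenocyte-like cells, and Col4a1 and Col4a2 in wounded endothelial-like and mural-like cells.

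The start regions of 3 fibrillar genes are shown, all of which were at least 2-fold higher in wounded mural-like cells, since a shared start motif can be looked for in them. They are the 250 bases before the transcription start on GRCm38.p6, taken from RefSeq, 5′ to 3′ on the gene's strand. Capitals mark CCAAT or its reverse complement ATTGG (the box bound by NF-Y) and GGGCGG or its reverse complement CCGCCC (the core of a GC box bound by Sp1).
Col1a2 (pro-alpha2 of type I), chr6:4505368-4505617, plus strand: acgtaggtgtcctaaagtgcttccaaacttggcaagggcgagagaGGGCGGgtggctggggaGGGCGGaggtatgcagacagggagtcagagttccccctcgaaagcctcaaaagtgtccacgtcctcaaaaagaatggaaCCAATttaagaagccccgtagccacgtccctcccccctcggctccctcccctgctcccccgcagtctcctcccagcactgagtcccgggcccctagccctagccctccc
Col3a1 (pro-alpha1 of type III), chr1:45311288-45311537, plus strand: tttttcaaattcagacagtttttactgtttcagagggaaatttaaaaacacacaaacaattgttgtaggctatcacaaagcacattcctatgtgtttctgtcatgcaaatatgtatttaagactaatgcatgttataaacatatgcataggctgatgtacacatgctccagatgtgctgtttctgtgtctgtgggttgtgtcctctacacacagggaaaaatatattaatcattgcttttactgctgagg
Col5a1 (pro-alpha1 of type V), chr2:27886175-27886424, plus strand: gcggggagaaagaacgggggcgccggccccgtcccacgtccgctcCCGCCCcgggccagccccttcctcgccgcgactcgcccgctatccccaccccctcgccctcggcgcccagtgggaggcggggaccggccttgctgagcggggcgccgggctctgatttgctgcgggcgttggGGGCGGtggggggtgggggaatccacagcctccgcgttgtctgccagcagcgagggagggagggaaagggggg
Both motifs stand in the Col1a2 window, GC boxes alone in that of Col5a1, and neither in that of Col3a1. Start regions were matched for 35 of the 44 chains, as 38 windows. CCAAT was in 34.2% of these windows and in 33.9% of all 32851 windows of this length. GGGCGG was in 57.9% of the chain windows and in 32.7% of all. A match of letters is a description of the window and not a binding site.

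Type I collagen, the main fibre of tendon and scar, is built from Col1a1 and Col1a2. In tenocyte-like cells Col1a1 stood at 23705, 37659 and 36988 CPM, and in FAP-like cells at 8919.9, 22583 and 22433 CPM. Col1a2 stood at 15921, 17085 and 16709 CPM in tenocyte-like cells and at 6554.7, 9872.7 and 10115 CPM in FAP-like cells. Among the named classes both chains were therefore highest in tenocyte-like cells in each library, and both FAP-like wound libraries lay above the uninjured one. The unnamed cluster 9 was higher in both wounds, with Col1a2 at 26030 CPM in the subcritical and 26095 CPM in the critical library. In FAP-like cells Col1a1 was higher than in uninjured muscle by 1.34 on the log2 scale in subcritical (interval 1.30 to 1.38) and by 1.33 in critical wounds (1.29 to 1.37). Col1a2 was 0.59 (0.54 to 0.64) and 0.63 (0.58 to 0.67) higher on the log2 scale, short of 2-fold. Few cells carried the uninjured level: 10 of the 158 uninjured FAP-like cells held 54.9% of the Col1a1 UMIs. The top 10 of the 639 subcritical cells, a smaller fraction of their class, held 6.72%. Without the 5% of cells richest in each chain, the critical log2 difference was 2.14 for Col1a1 and 1.24 for Col1a2.

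Col3a1, the homotrimer chain of type III collagen that mixes into young scar and vessel walls, was the main fibrillar chain led by FAP-like cells. Its level in FAP-like cells was 7203.2, 14573 and 14272 CPM, and in tenocyte-like cells 6458, 10424 and 11750 CPM. The log2 difference to uninjured FAP-like cells was 1.02 in subcritical (0.97 to 1.06) and 0.99 in critical wounds (0.94 to 1.03), so the 2 wounds lie on either side of the 2-fold line with nearly the same value.

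Type V chains, which start and limit the width of type I fibres, followed. FAP-like Col5a1 stood at 773, 1723 and 2012 CPM, Col5a2 at 772, 1571 and 1633 CPM and Col5a3 at 343, 437 and 526 CPM. In critical wounds the log2 difference was 1.38 for Col5a1 (1.25 to 1.52), 1.08 for Col5a2 (0.95 to 1.22) and 0.62 for Col5a3 (0.41 to 0.83). Col5a3 thus stayed below 2-fold. Col5a1 was 0.22 higher on the log2 scale in critical than in subcritical FAP-like cells (0.15 to 0.29), under the 1.5-fold line.

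The minor fibrillar chains were scarcer. Col11a1, a nucleator of thin fibres, was mainly a tenocyte-like chain at 416, 549 and 661 CPM, against 30.7, 80.9 and 97.9 CPM in FAP-like cells. All 20 of its uninjured FAP-like UMIs lay in 2 cells, and within cluster 11 alone its critical difference turned to -0.46 on the log2 scale. Col11a2 stood at 212, 200 and 156 CPM in tenocyte-like cells. Its 143 CPM in uninjured FAP-like cells came from 93 UMIs of 1 cell, so its difference to the 3.28 CPM of critical wounds rests on that cell. Col27a1 was led by FAP-like cells at 47.6, 90.5 and 92.6 CPM. Col2a1, the cartilage chain, reached only 7.85, 18.7 and 21.5 CPM in tenocyte-like cells, while 1838, 140 and 93 of its UMIs lay in the unnamed cluster 20 of 8, 6 and 3 cells.

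FACIT chains were led by tenocyte-like, FAP-like or Schwann-like cells. Col12a1, the type XII chain found on fibres of loaded tissue such as tendon, stood at 1177, 1755 and 1960.0 CPM in tenocyte-like cells. In FAP-like cells it went from 49.2 CPM in uninjured to 671 in subcritical and 778 CPM in critical muscle, and within cluster 11 to 169 and 153 CPM. The critical log2 difference was 3.96 (3.48 to 4.54) and the subcritical one 3.74 (3.26 to 4.33). Col16a1, a FACIT chain of small fibrils and basement membranes, stood at 67.6, 303 and 343 CPM in FAP-like cells and at 322, 433 and 341 CPM in tenocyte-like cells. Its critical log2 difference in FAP-like cells was 2.33 (1.91 to 2.82). Col14a1, the type XIV chain of mature interstitial fibres, was led by FAP-like cells at 550.2, 739 and 702 CPM, with a critical log2 difference of only 0.35 (0.19 to 0.52). Col22a1, a chain of the muscle and tendon junction, was a tenocyte-like chain at 110, 77.9 and 54.7 CPM, the uninjured value from 14 UMIs of 1 cell. The type IX chains Col9a2 and Col9a3 were led by Schwann-like cells on 8 and 5 uninjured UMIs, while cluster 20 held 93 and 183.

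Basement membrane chains had another source. Col4a1 and Col4a2, which form the common type IV network and are read from neighbouring genes whose models overlap at their starts, were led by endothelial-like cells. With at least 1000 UMIs per cell the lead of both passed to mural-like cells, and with marker scores to mast-like cells. Col4a1 stood in endothelial-like cells at 1180.2, 3242 and 2833 CPM and Col4a2 at 712, 1707 and 1631 CPM. In mural-like cells Col4a1 stood at 856, 2672 and 2559 CPM and Col4a2 at 614, 1284 and 1275 CPM. As whole classes, endothelial-like and mural-like cells of both wounds were therefore above those of uninjured muscle for both chains. Within mural-like cluster 7 neither chain reached 2-fold in critical wounds, as given below. In FAP-like cells Col4a1 stood at 1040.4, 537 and 446 CPM and Col4a2 at 535, 283 and 251 CPM, below uninjured muscle in both wounds. Within FAP-like cluster 11 alone they stood at 977 and 525 CPM in critical wounds, and neither call held. The strand used in counting is not given in the sources used here, so reads from the overlap of the 2 genes could be counted for either.

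Col15a1 and Col18a1 carry the multiplexin chains that anchor basement membranes to the fibres around them and release endostatin-like fragments. Col15a1 stood at 75.2, 551 and 571 CPM in endothelial-like cells, at 10.8, 317 and 323 CPM in mural-like cells and at 406, 177 and 168 CPM in FAP-like cells. The highest class in uninjured muscle was thus FAP-like and in both wounds endothelial-like. Col18a1 was led by mural-like cells at 318, 764 and 869 CPM, with 33.1, 288 and 307 CPM in endothelial-like and 79.9, 161 and 171 CPM in FAP-like cells. Col4a5, a chain of the minor type IV networks, stood at 69.1, 15.6 and 32.6 CPM in mural-like cells, from 64, 3 and 11 UMIs, and at 44.6, 17.7 and 10.2 CPM in FAP-like cells.

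Type VI chains, whose loss causes muscle disease, were shared by the mesenchymal classes. Col6a1 stood at 1216, 1670.4 and 1609.8 CPM in FAP-like and 1703, 1979 and 1806 CPM in tenocyte-like cells. Col6a2 stood at 1457, 2219 and 2369 CPM in FAP-like and 1891, 2319 and 2262 CPM in tenocyte-like cells. Col6a3 stood at 784, 1285 and 1657 CPM in FAP-like and 832, 798 and 973 CPM in tenocyte-like cells. The differences to uninjured FAP-like cells were small, and Col6a3 alone passed 2-fold, in critical wounds (log2 1.08, 0.95 to 1.22). Col6a6, which can stand in for Col6a3 in the molecule, was found in FAP-like cells at 53.8, 46.9 and 40.5 CPM and had no UMI in tenocyte-like cells of any library.

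Of the remaining described chains, Col8a1, a short chain of vessel and corneal networks, was led by FAP-like cells at 194, 495 and 582 CPM. In endothelial-like cells it stood at 114, 74.7 and 80.2 CPM. Col8a2 was led by tenocyte-like cells at 180.5, 143 and 139 CPM. Col23a1, a transmembrane chain, stood at 3.07, 26.5 and 37.7 CPM in FAP-like cells, from 2, 39 and 92 UMIs. In Schwann-like cells it stood at 96.5 CPM in uninjured muscle, from 13 UMIs, and at 105 CPM in critical muscle, from 2 UMIs of 1 cell (interval 12.7 to 379), which covers the FAP-like level, and 7 subcritical cells were too few to describe. Among the 11 scarcer chains, Schwann-like cells led for Col9a1, Col20a1, Col24a1, Col28a1 and Col4a4, tenocyte-like cells for Col13a1 and Col4a3, FAP-like cells for Col7a1 and Col6a5, mural-like cells for Col4a6 and myogenic-like cells for Col26a1. These leads rest on few UMIs: that for Col4a4 on 1 UMI in 80 uninjured and 1 in 21 critical Schwann-like cells, and that for Col9a1 on 4 UMIs. Col7a1, the anchoring fibril chain, had 0 UMIs in uninjured and 25 in critical FAP-like cells, at least 2.22-fold higher against a floor of 3 counts over the uninjured library.

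Counted by type over the whole FAP-like class, more fibrillar chains were higher and more basement membrane chains lower in wounds. The lower calls for Col4a1, Col4a2 and Col15a1 did not hold within cluster 11, as given below. In critical against uninjured muscle, 29 chains could be compared, of which 12 were higher and 9 lower, while 8.33% of all genes were higher and 10.5% lower. The median log2 difference of these chains was 0.70, against -0.08 for all genes compared. Among 9 fibrillar chains 4 were higher and 1 lower (Col11a2, on 1 uninjured cell), with a median of 0.99. Among 4 FACIT chains 2 were higher and 1 lower, and among 4 type VI chains 1 was higher and none lower. Among 8 basement membrane chains 2 were higher (Col18a1 and Col7a1) and 6 lower (Col4a1, Col4a2, Col4a3, Col4a4, Col4a5 and Col15a1), with a median of -1.24. In subcritical against uninjured muscle 10 of 27 chains were higher and 6 lower, with 7.10% of all genes higher and 11.0% lower, and the median was 0.61 against -0.13. Both comparisons share the uninjured library. A chain was compared only with a mean of at least 5 CPM, so these counts do not cover all 44. A chain almost absent from 1 library could be compared only through the other.

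Critical and subcritical FAP-like cells had nearly the same chain levels. Of 28 chains compared, Col4a4 was higher (19 against 5 UMIs) and Col4a5 lower (25 UMIs of 2441851 against 26 of 1470316) in critical wounds, while 7.31% of all genes were higher and 4.73% lower. The median difference was 0.05 on the log2 scale, against 0.04 for all genes. Col1a1 differed by -0.01 (-0.03 to 0.01) and Col3a1 by -0.03 (-0.05 to -0.01). Among the chains with at least 1000 UMIs in both wounds, Col6a3 differed most, at 0.37 (0.29 to 0.45), which is under the 1.5-fold line.

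**Figure D2:**
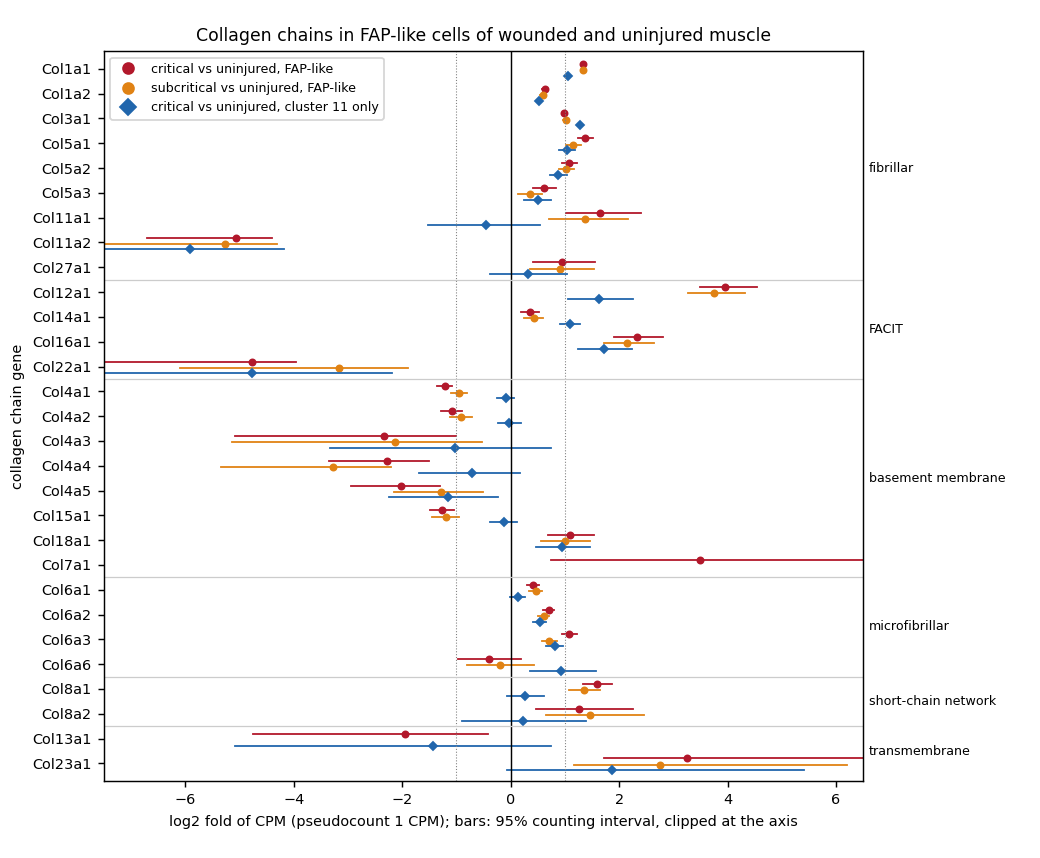
Log2 difference to uninjured FAP-like cells (x axis) for each chain compared (y axis, grouped by type), in subcritical and critical wounds and, separately, within FAP-like cluster 11 of critical wounds; bars are exact 95% counting intervals, clipped at the axis, and dotted lines mark 2-fold. Col12a1 lies near 3.96 in critical wounds for the whole class and near 1.62 within cluster 11, and Col4a1 moves from -1.22 to -0.09.

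The makeup of the class bears on these differences. All uninjured FAP-like cells belonged to cluster 11, so cluster 10 could be compared only between wounds. Within cluster 11, critical against uninjured, 8 of 30 chains were higher and 5 lower, with 6.68% of all genes higher and 8.60% lower. Col1a1 was 1.05 higher on the log2 scale, Col3a1 1.28, Col14a1 1.09, Col16a1 1.71 and Col12a1 1.62. Of 9 fibrillar chains compared within the cluster 3 were higher and 1 lower, and of 4 FACIT chains 3 were higher and 1 lower, with Col12a1 at 49.2 and 153 CPM in uninjured and critical cells. The basement membrane chains did not keep their difference: Col4a1 stood at 1040.4 and 977 CPM (log2 -0.09), Col4a2 at 535 and 525 CPM (-0.03) and Col15a1 at 406 and 370 CPM (-0.13), while Col4a5 was 1.16 lower. Cluster 10 held Col12a1 at 980.3 and 1041 CPM in subcritical and critical wounds and Col4a1 at 219 and 223 CPM, and none of 26 chains differed by 1.5-fold between the wounds there, where 10.1% of all genes were higher and 7.14% lower. Marker genes moved with the class as well: the 10 FAP markers summed to 27746, 12002 and 10731 CPM in FAP-like cells, with all 10 detected in each library, and the 8 tenocyte markers to 791, 2827 and 2493 CPM. The part of either list in the chain differences was not tested.

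The proportion of chains to Col1a1 was followed across libraries, not across genes. Per 100 Col1a1 UMIs, FAP-like cells held 73.5, 43.7 and 45.1 Col1a2 UMIs, and tenocyte-like cells 67.2, 45.4 and 45.2. The type I proportion was therefore lower in both wounds in both classes, by more than the counting intervals (70.6 to 76.5 in uninjured against 44.4 to 45.8 in critical FAP-like cells). Within cluster 11 the values were 73.5, 49.6 and 51.0. For Col3a1 the FAP-like values were 80.8, 64.5 and 63.6, but within cluster 11 they were 80.8, 90.3 and 94.7, so the direction depended on which cells were counted. Col14a1 went from 6.17 to 3.27 and 3.13 in FAP-like cells and stood at 6.17, 6.10 and 6.35 within cluster 11. Col12a1 went from 0.551 to 2.97 and 3.47 in FAP-like cells, against 0.551, 1.01 and 0.828 within cluster 11 and 4.97, 4.66 and 5.30 in tenocyte-like cells. With 54.9% of the uninjured Col1a1 UMIs in 10 cells, the uninjured proportions lean on those cells. Their values without the cells richest in Col1a1 are given in the closing section.

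**Figure D3:**
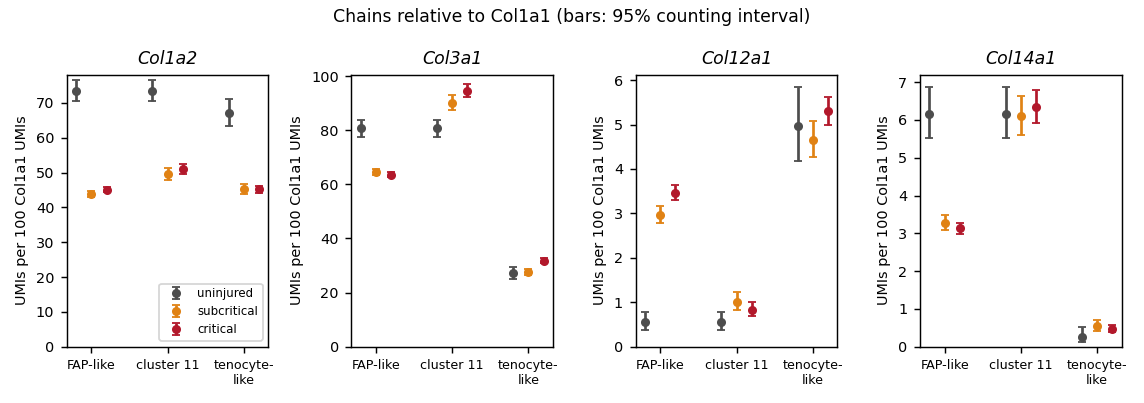
UMIs of Col1a2, Col3a1, Col12a1 and Col14a1 per 100 Col1a1 UMIs (y axis, 1 panel per chain) for FAP-like cells, FAP-like cluster 11 alone and tenocyte-like cells (x axis), with points coloured by uninjured, subcritical and critical library and exact 95% counting intervals. The Col1a2 value is lower in both wounds in all 3 sets of cells, and the Col3a1 value is lower in the whole FAP-like class and higher in cluster 11.

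Tenocyte-like cells numbered 20 in uninjured muscle, where 10 cells held 86.9% of the Col1a1 UMIs, so no count of differences to uninjured muscle is given for them. Between the wounds, 27 chains were compared. In critical wounds Col8a1 was 0.66 higher on the log2 scale (0.29 to 1.06) and Col23a1 1.003 higher (-0.20 to 2.48), and Col24a1, Col15a1 and Col13a1 were lower on 2 to 23 critical UMIs. Over all genes, 17.9% were higher and 17.5% lower, and the median was -0.04 for chains and 0.01 for all genes.

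Most chains compared in mural-like cells were higher in wounds than in uninjured muscle. In critical wounds 18 of 21 chains were higher and 2 lower (Col4a5 and Col4a6), with 16.5% of all genes higher and 10.2% lower, and the median log2 difference was 3.00 against 0.13. In subcritical wounds 20 of 23 chains were higher and 2 lower, with 16.2% and 13.2% of all genes, and the median was 2.39. A chain almost absent from uninjured cells could be compared only through the wound, and was then called higher. These counts and medians are therefore partly set by the filter on low values. Col1a1 went from 140.3 CPM in uninjured to 863 in subcritical and 3105 CPM in critical muscle. Col3a1 went from 190.0 to 1232 and 2432 CPM, and Col6a2 from 115 to 790.2 and 1085 CPM. The critical log2 difference was 4.46 for Col1a1 (4.20 to 4.74), 3.67 for Col3a1 (3.44 to 3.92), 4.64 for Col5a1 (4.01 to 5.50), 4.78 for Col15a1 (3.97 to 6.00) and 1.58 for Col4a1 (1.44 to 1.72). Fibrillar chains thus differed by more than the type IV chains that these cells already made in uninjured muscle.

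Mural-like cells were also compared between the wounds. Of 24 chains, 12 were higher and 3 lower in critical than in subcritical muscle, where 26.0% of all genes were higher and 19.4% lower. Col1a1 was 1.85 higher on the log2 scale (1.61 to 2.09), Col5a1 1.44 (0.92 to 2.01), Col1a2 1.203 (0.92 to 1.50), Col3a1 0.98 (0.77 to 1.196) and Col6a3 0.88 (0.57 to 1.21). The basement membrane chains Col4a1 (-0.06), Col4a2 (-0.01) and Col15a1 (0.03) differed little, with intervals that lay between -0.44 and 0.50 on the log2 scale. The 3 chains called lower, Col11a1, Col6a6 and Col26a1, rest on 2 UMIs or fewer in each wound. With classes set by marker scores in place of clusters, 3 chains were higher, 2 of them among the 12. Without the 5% of cells richest in each chain the difference was 0.94 for Col1a1, 0.58 for Col1a2 and 0.64 for Col3a1. No animal-level test was possible for this class, with 19, 30 and 32 hashtag-assigned cells.

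Within cluster 7, critical against uninjured, 16 of 22 chains were higher and none lower, with 21.7% of all genes higher and 14.4% lower. Within cluster 8, 19 of 23 were higher and 2 lower, with 14.1% and 19.2% of all genes. Both counts are partly set by the filter on low values. In cluster 7, 1 critical UMI stood for 11.3 CPM, so a chain with 1 critical and 0 uninjured UMIs was compared and called higher. In the Myh11-rich cluster 7, Col1a1 went from 107 to 1127 CPM in critical muscle (log2 3.38) and Col3a1 from 38.3 to 620.0 CPM (3.98), while Col4a1 went from 827 to 1206 CPM (0.54) and Col4a2 differed by 0.23. In the Rgs5-rich cluster 8, Col1a1 went from 289 to 3810.3 CPM (3.72), Col4a1 from 984 to 3042 CPM (1.63), Col15a1 from 58.9 to 435 CPM (2.86) and Col18a1 from 147 to 913 CPM (2.62). In cluster 7 Col15a1 had 0 UMIs in uninjured and 1 in critical cells. So the higher Col15a1 of the class lay in cluster 8, the cluster that held most mural-like cells after injury. FAP markers in mural-like cells summed to 73.4, 98.8 and 471 CPM, with 6, 5 and 9 of 10 detected. Pdgfra, Lum, Fbln1 and Smoc2 were at 0 in uninjured, Pdgfra, Lum, Clec3b, Smoc2 and Pi16 in subcritical and Pi16 in critical cells. Set against its own level in FAP-like cells of the same library, the highest of these markers reached 6.38%, 4.71% and 10.1%. In uninjured, subcritical and critical cells 10 of 23, 17 of 23 and 19 of 24 chains stood above that percentage of their own FAP-like level. Col1a1 stood at 1.57%, 3.82% and 13.8% of its FAP-like level, and so was below that of the highest marker in uninjured and subcritical cells. The part of these markers in the chain differences was not tested.

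**Figure D4:**
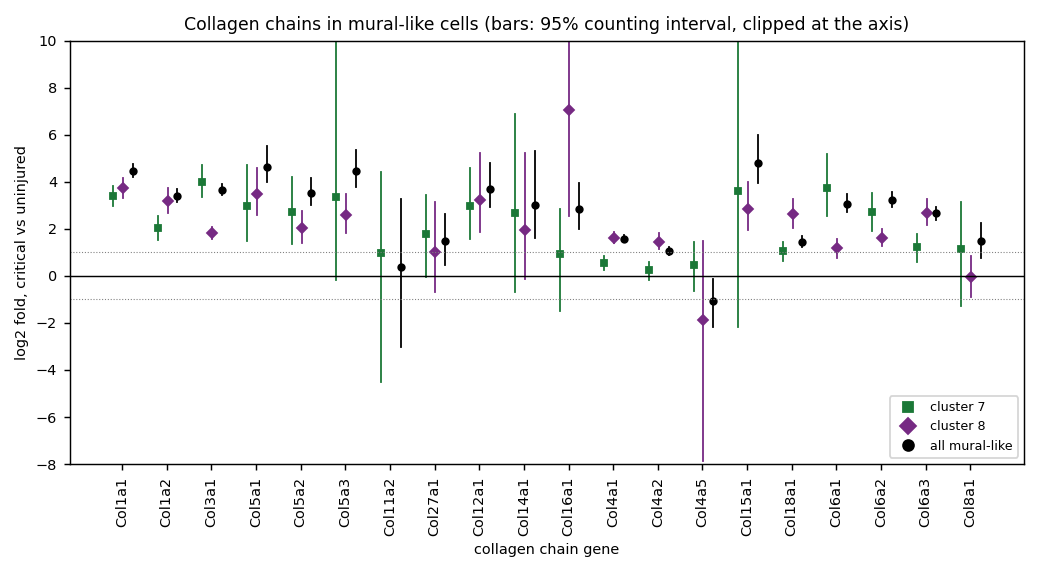
Log2 difference between critical and uninjured mural-like cells (y axis) for each chain compared except the scarce Col4a6 (x axis), for all mural-like cells, cluster 7 and cluster 8, with exact 95% counting intervals clipped at the axis and dotted lines at 2-fold. Col1a1 lies at 4.46 for all cells, 3.38 in cluster 7 and 3.72 in cluster 8, and Col4a1 at 1.58, 0.54 and 1.63.

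Endothelial-like cells could be compared between animals. Cells assigned by hashtag gave 4 uninjured, 3 subcritical and 3 critical animals with at least 20 such cells, tested with edgeR's quasi-likelihood test and Benjamini-Hochberg adjustment over 2502 genes. Of endothelial-like cells 52.2%, 37.8% and 33.5% were assigned to 1 animal. Assignment was looser in some animals. When the top hashtag had to hold 70% of a cell's hashtag counts, subcritical animal 1 fell from 55 to 10 cells and animal 4 from 85 to 36. That left 2 subcritical animals with at least 20 cells. The p-values measure the spread between these animals within 1 pooled library per group. Chains passing the expression filter were Col4a1, Col4a2, Col15a1, Col18a1, Col1a1, Col1a2 and Col3a1, and all 7 rose in critical wounds, where 9.47% of genes tested rose and 8.19% fell. The same 7 rose in subcritical wounds, with 10.2% of genes rising and 7.91% falling. A chain that is low in uninjured muscle could pass the filter only through the wounds. Col1a1, Col1a2, Col3a1, Col18a1 and Col15a1 were such chains, with uninjured means of 15.6, 8.86, 14.0, 9.69 and 64.3 CPM. The count of 7 is therefore partly set by the filter, and it says nothing of the other 37.

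Col4a1 stood at 1185, 1069.5, 1471 and 1454 CPM in the 4 uninjured animals, at 3592, 3379.5 and 3402 in the subcritical and at 2638, 2945 and 3099 in the critical animals. Every injured animal lay above every uninjured one. The group means were 1295 ± 199, 3458 ± 117 and 2894 ± 235 CPM (SD). By edgeR, Col4a1 rose by 1.40 ± 0.11 on the log2 scale (SE, adjusted p = 1.154e-13) in subcritical and by 1.15 ± 0.11 (adjusted p = 5.924e-11) in critical wounds. Col4a2 rose by 1.21 ± 0.12 (edgeR adjusted p = 3.719e-10) and 1.07 ± 0.12 (adjusted p = 8.534e-09), from 796 ± 138 to 1879 ± 99.8 and 1702 ± 136 CPM (SD).

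Col15a1 also separated injured from uninjured animals. Its levels were 12.6, 65.3, 96.7 and 82.7 CPM in uninjured animals, 613, 625 and 580.5 in subcritical and 567, 603 and 555 in critical animals. Those of the 6 injured animals lay close together, and none overlapped with an uninjured animal. The edgeR rise was 3.02 ± 0.21 on the log2 scale (SE, adjusted p = 5.711e-15) in subcritical and 2.95 ± 0.21 (adjusted p = 6.976e-15) in critical wounds. Col18a1 stood at 9.69 ± 10.0, 200 ± 82.8 and 250 ± 85.2 CPM (SD), and rose by 4.05 ± 0.44 (SE, edgeR adjusted p = 4.583e-08) and 4.28 ± 0.42 (adjusted p = 5.187e-09). The assigned cells had less uninjured Col18a1 than the 33.1 CPM of the whole class.

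The 3 interstitial chains were low and spread widely. Col1a1 stood at 0, 19.3, 36.3 and 6.9 CPM in uninjured, 336, 174 and 161 in subcritical and 748, 187 and 239 in critical animals, with no overlap between injured and uninjured animals. It rose by 3.54 ± 0.84 on the log2 scale (SE, edgeR adjusted p = 0.02345) in subcritical and 4.52 ± 0.70 (adjusted p = 0.003326) in critical wounds. The subcritical call was lost without any 1 of uninjured animals 2 and 4 or subcritical animals 1, 2 and 4, with log2 values of 3.19 to 3.76 and edgeR adjusted p from 0.05409 to 0.09199 (4.72e-09 to 0.09199 over all alternatives). Col1a2 rose by 3.11 ± 0.54 (edgeR adjusted p = 2.759e-05) and 3.90 ± 0.46 (adjusted p = 1.071e-08), and Col3a1 by 3.32 ± 0.60 (adjusted p = 0.001313) and 4.02 ± 0.51 (adjusted p = 8.525e-05). In macrophage-like cells Col1a1 stood at 577 CPM in the subcritical and 314 CPM in the critical library, against 315 and 493 CPM in endothelial-like cells, at median depths of 1073.5 and 1298 UMIs against 951 and 1092.5. Col1a2 stood at 268 and 161 CPM in macrophage-like and at 148 and 207 CPM in endothelial-like cells, and Col3a1 at 320.3 and 245 against 212 and 294 CPM. A macrophage should make none of these 3 chains, and the endothelial-like levels were below the macrophage-like ones in the subcritical library and above them in the critical library. Whether endothelial-like cells make these 3 chains cannot be told from such levels. Col4a1 (49.2 and 48.1 CPM), Col15a1 (12.5 and 10.2) and Col18a1 (8.05 and 20.5) were far lower in macrophage-like than in endothelial-like cells. FAP markers in endothelial-like cells summed to 40.5, 80.0 and 102 CPM, with 9, 9 and 10 of 10 detected (Fbln1 at 0 in uninjured and Pdgfra in subcritical cells). Set against its own FAP-like level, the highest of these markers reached 25.6%, 2.16% and 2.35%. By that measure 4 of 23, 7 of 23 and 8 of 24 chains stood above it. Col4a1, Col4a2 and Col18a1 were among them in each library, and Col15a1 in both wounds. Col1a1, Col1a2 and Col3a1 were not among them in any library. The part of these markers in the chain differences was not tested.

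**Figure D5:**
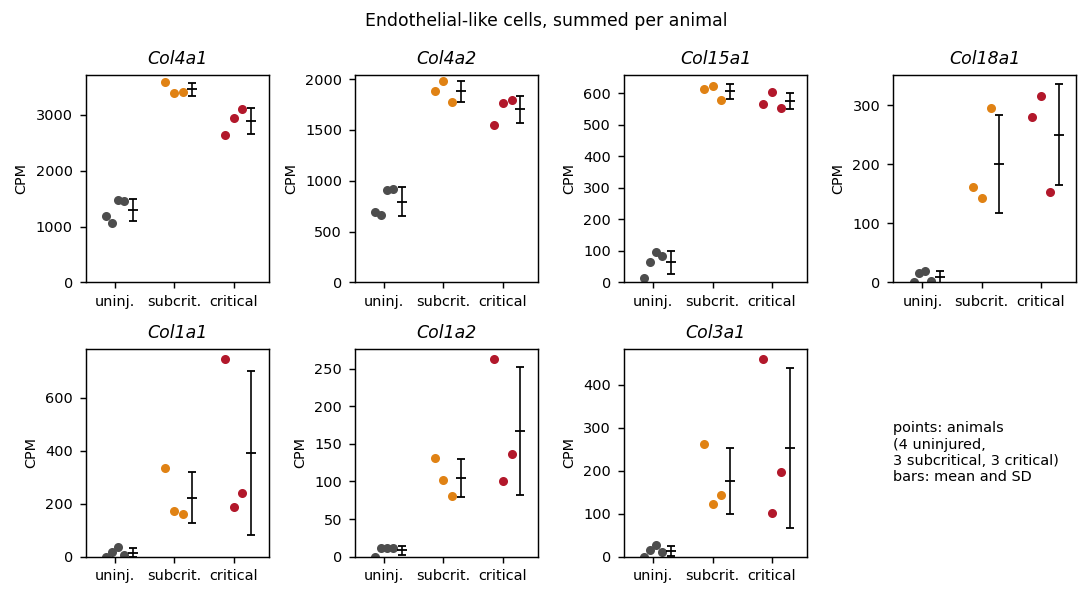
Level in CPM (y axis, 1 panel per chain) of the 7 chains tested in endothelial-like cells, for 4 uninjured, 3 subcritical and 3 critical animals (x axis); points are animals, and bars show the mean and SD. Col15a1 lies between 12.6 and 96.7 CPM in uninjured animals and between 555 and 625 CPM in all injured ones.

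No chain passed the test between critical and subcritical endothelial-like cells by edgeR (0 of 7, with 0.240% of genes higher and 0.440% lower). At an unadjusted p under 0.05 there was 1, Col4a1, at -0.25 ± 0.12 on the log2 scale (adjusted p = 0.4984), and DESeq2 called 0 of the 3 chains it kept. Col15a1 differed by -0.07. At the level of whole libraries, 16 of 17 chains compared were higher in critical than in uninjured endothelial-like cells, with 5.71% of all genes higher and 5.10% lower, and Col8a1 was the other, at -0.50. In subcritical muscle 16 of 17 were higher, with 6.16% of all genes higher and 7.34% lower. A chain almost absent from uninjured cells could reach a mean of 5 CPM only through the wound, and was then called higher. Both counts are therefore partly set by this filter. Between the wounds 5 of 20 were higher in critical muscle (Col1a1, Col5a1, Col6a1, Col6a2 and Col6a3) and 1 lower, with 12.1% of all genes higher and 9.20% lower. Without the 5% of cells richest in each chain the counts against uninjured muscle were 8 and 7.

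The endothelial-like differences of Col4a1, Col15a1 and Col18a1 were also followed within clusters. In cluster 3, which held most endothelial-like cells after injury, Col4a1 stood at 1787 CPM in uninjured and 3347 CPM in critical cells (log2 0.91), Col15a1 at 167 and 710.2 CPM (2.08) and Col18a1 at 45.5 and 306 CPM (2.72). In cluster 6, which held most uninjured cells, Col4a1 stood at 1556 and 3027 CPM (0.96) and Col15a1 at 84.0 and 504 CPM (2.57). In cluster 5 Col4a1 stood at 650 and 1735 CPM (1.42) and Col18a1 at 92.8 and 543 CPM (2.54). All of these were higher in critical than in uninjured cells, the Col4a1 values of clusters 3 and 6 by less than 2-fold. In cluster 6 Col18a1 had only 2 uninjured and 1 critical UMIs. Col8a1, lower in critical cells of the whole class, stood in cluster 5 at 419 CPM in uninjured and 403 CPM in critical cells (-0.06). Cluster 14, with 127, 115 and 95 cells, is not covered here.

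Macrophage-like cells were compared between 4 critical and 4 subcritical animals. The 4 chains that passed the filter were Col1a1, Col1a2, Col3a1 and Col4a1. Col1a1 stood at 191, 802, 353 and 444 CPM in subcritical and 209.7, 549, 159 and 145 CPM in critical animals, and the groups overlapped. By edgeR over 3605 genes it differed by -0.68 ± 0.61 on the log2 scale (SE, adjusted p = 0.8563), and Col3a1 by -0.09 (adjusted p = 0.9882). None of the 4 chains passed the test, none had an unadjusted p under 0.05, and DESeq2 called 0 of the 3 it kept, while 0.610% of genes rose and 0.610% fell.

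The machinery that folds, trims and crosslinks chains was followed with a list of 36 genes. In critical against uninjured FAP-like cells, 5 of 15 chaperone, hydroxylase and secretion genes were higher and none lower, with a median log2 difference of 0.91, against 8.33% of all genes higher and 10.5% lower. Within cluster 11 only P4ha3 of the 15 was higher, against 6.68% of all genes, and the median was 0.39. P4ha3, a catalytic subunit of prolyl 4-hydroxylase, stood at 24.6 and 139 CPM (log2 2.45, 1.78 to 3.32), and at 73.3 CPM (1.54) in critical cells of cluster 11. Serpinh1, the chain chaperone, stood at 1778 and 3716 CPM (1.06, 0.97 to 1.15), and at 2593 CPM (0.54) in cluster 11. Of 4 crosslinking genes Lox, which oxidises lysines for crosslinks, was higher, at 72.2 and 448 CPM (2.62, 2.21 to 3.09), and by 2.28 within cluster 11. Of 6 propeptide processing genes 2 were higher (Adamts3 and Adamts14) and 1 lower, Pcolce2, an enhancer of C-propeptide removal, at 652 and 55.3 CPM (-3.54, -3.85 to -3.28), with -1.96 within cluster 11. Of 6 receptor genes Ddr2, a kinase that binds fibrillar collagen, was lower, at 197 and 82.7 CPM (-1.24, -1.58 to -0.92), a call that ended within cluster 11 (-0.52). In subcritical FAP-like cells 3 of 15 chaperone, hydroxylase and secretion genes and 1 of 5 crosslinking genes (Lox) were higher. Pcolce2 was lower among 6 propeptide processing genes, and Ddr2 among 7 receptor genes. Over all genes 7.10% were higher and 11.0% lower. Within cluster 11 the subcritical Ddr2 call ended, and the median of the 15 chaperone, hydroxylase and secretion genes was 0.19, against 0.69 in the class.

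In critical against uninjured mural-like cells, 11 of 15 chaperone, hydroxylase and secretion genes were higher and none lower, with a median of 1.16, against 16.5% of all genes higher and 10.2% lower. Within the clusters fewer were called. In cluster 7, 3 of 15 were higher and 1 lower (median 0.57), against 21.7% and 14.4% of all genes. Those 3 were P4ha3 (3 critical against 0 uninjured UMIs), P3h1 (4 against 10) and P3h3 (5 against 14). In cluster 8, 4 of 14 were higher and none lower (median 0.80), against 14.1% and 19.2% of all genes. Serpinh1 stood at 653 and 1907 CPM in the class, with a log2 difference of 0.65 in cluster 7 and 1.42 in cluster 8. Of 4 crosslinking genes 2 were higher, among them Loxl2 at 29.1 and 279 CPM (log2 3.21, 2.63 to 3.93). Loxl2 differed by 1.44 in cluster 8 and by 1.91 in cluster 7, there on 2 critical and 4 uninjured UMIs (-1.37 to 4.90). In endothelial-like cells between animals, Ppib, the prolyl isomerase of the hydroxylation complex, rose by 0.66 on the log2 scale in critical wounds (edgeR adjusted p = 0.001268) and 0.57 in subcritical wounds (adjusted p = 0.006384). P4hb, the other subunit of prolyl 4-hydroxylase, rose by 0.53 (edgeR adjusted p = 0.03503) and 0.66 (adjusted p = 0.006949). These were the 2 of 8 chaperone genes tested there that rose, where 9.47% of all genes rose in critical and 10.2% in subcritical wounds.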

How the data were processed

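Gene counts per cell barcode and hashtag antibody counts were analysed for 3 pooled libraries. The authors deposited raw UMI counts from Cell Ranger 6.0.2, per the file headers; builds GRCm39 and mm39 and bcl2fastq are named in the submitters' processing notes, and the counting options are not given in the sources used here. Cells were kept with at least 200 genes, 500 UMIs and at most 20% mitochondrial UMIs. Barcodes with several hashtags (60, 146 and 148) were removed, which takes out only part of the doublets; a doublet caller marked 0, 16 and 5 cells and was not relied on. Cells were clustered in scanpy 1.11.5 on 2000 variable genes without collagen chains (30 components, 15 neighbours, Leiden resolution 0.8). Clusters were named "-like" from marker lists, by clauses set after the clusters were seen. Chain members and gene lists were chosen with earlier results of these data known. Genes named were all chains with at least 100 UMIs, plus list genes that passed a threshold. Libraries were compared by CPM (the UMIs of a gene over those of the class, scaled to a common total) with exact 95% intervals and no test. Counts summed per animal (at least 20 cells) were tested with edgeR 4.0.16 (quasi-likelihood, TMM, Benjamini-Hochberg over all genes) and, as an alternative, DESeq2 1.42.0; both were tested on simulated data. Other alternatives changed the clustering, doublet removal, depth minimum, scaling, pseudocount and filter, or left out animals or the cells richest in a chain. Surface protein counts were not used here. Start regions came from RefSeq (GRCm38.p6), a different build from the files, and no file coordinate was used with them.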

Additional observations from a re-analysis of the deposited data

Results flagged for a closer look

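Among 15 groups of 4 animals checked for a sample far from the others, 3 were flagged; chance flags about 1 in 20 groups. In endothelial-like cells of uninjured animals, Col1a2 stood at 0.0 CPM in animal 1, while the other 3 animals lay between 11.5 and 12.1 CPM. In macrophage-like cells of critical animals, Col1a1 stood at 549.1 CPM in animal 2, with the next animal at 209.7 and the lowest at 145.0 CPM. In the same cells Col1a2 stood at 276.9 CPM in animal 2, with the next at 103.6 and the lowest at 80.6 CPM.

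Col15a1 had opposite differences to uninjured muscle in different classes. In critical wounds its log2 difference was -1.264 in FAP-like, 2.909 in endothelial-like and 4.781 in mural-like cells. In subcritical wounds it was -1.194, 2.857 and 4.754. The comparisons share the uninjured library, and the difference between classes was not tested. Within FAP-like cluster 11 the critical value was -0.13.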

How the results depend on the processing

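No paired analysis was possible because hashtag numbers do not tie animals of different groups together. With 1 library per group, a group cannot be told apart from its pool, and shallow classes limit scarce chains. Of the 28 leading classes, 22 were kept at Leiden resolution 0.4, 28 at 1.2, 20 with marker scores in place of clusters and 22 with at least 1000 UMIs per cell. Chains led by FAP-like cells numbered 8 and became 4 (resolution 0.4) and 5 (marker scores); Schwann-like 3 became 1 (resolution 0.4) and 1 (1000 UMIs); endothelial-like 3 became 1 (marker scores) and 1 (1000 UMIs); mural-like 2 became 4 (1000 UMIs).

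In FAP-like cells, chains lower in critical than in uninjured muscle numbered 9, and 4 (resolution 0.4), 14 (no filter on low values), 5 (without the 5% of cells richest in each chain) and 5 (cluster 11). Subcritical chains higher numbered 10, and 6 (resolution 0.4) and 5 (cluster 11), and lower 6, and 3 (marker scores) and 10 (no filter). Between wounds 2 were called, and 1 (pseudocount 5 CPM), 9 (no filter), 1 (clusters 9 and 22 added), 1 (without the richest 5%) and 0 (cluster 10). Tenocyte-like calls between wounds numbered 5, and 3 (resolution 0.4), 2 (marker scores), 13 (no filter), 3 (without the richest 5%) and 8 (cells weighted equally). Mural-like chains higher between wounds numbered 12, and 3 with marker scores (2 of the 12 kept), and lower 3, and 0 without the richest 5%. Endothelial-like chains higher numbered 16 in each wound, and 8 in critical and 7 in subcritical wounds without the richest 5%.

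For FAP-like proportions to Col1a1, the log2 change of Col1a2 was -0.75 in subcritical and -0.70 in critical wounds, and -0.58 and -0.53 at resolution 0.4, -0.92 and -0.87 without the 5% of cells richest in Col1a1, and -0.57 and -0.53 in cluster 11. That of Col3a1 was -0.32 and -0.34, and -0.84 and -0.89 with marker scores, -0.43 and -0.44 with clusters 9 and 22 added and -1.0002 and -1.06 without the richest 5%, but it reversed to 0.21 and 0.27 at resolution 0.4 and to 0.16 and 0.23 in cluster 11. Col14a1 reversed to 0.0039 and 0.055 at resolution 0.4 and to 0.042 in critical cells of cluster 11. Col11a1 in critical FAP-like cells reversed to -0.50 at resolution 0.4 and -0.46 in cluster 11. Resolution 0.4 and cluster 11 change which cells are counted; the other causes were not tested.

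Between animals, endothelial-like chains that rose in critical wounds numbered 7, and 14 with no low-count filter, which tests more genes. Leaving out 1 animal at a time gave 7 to 8 in critical and 6 to 7 in subcritical wounds, and 0 to 0 between wounds in endothelial-like and in macrophage-like cells. Of the single-chain results between animals, 430 kept their direction and side of the threshold and 5 lost their call, all for Col1a1 in subcritical wounds.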

Other observations

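Several clusters that carried no class name held many chain transcripts. Cluster 9 had 11, 127 and 153 cells in uninjured, subcritical and critical muscle, with median depths of 885 and 891 UMIs in the wounds. Chains made up 15.0% and 14.7% of its UMIs there, and it held 13.4% and 10.2% of all chain UMIs of those libraries. In subcritical and critical muscle Col1a1 stood at 65578 and 62014 CPM, Col3a1 at 26740.0 and 27108 CPM, Col5a1 at 6267 and 6206 CPM and Col12a1 at 3762 and 3561 CPM. Per 100 Col1a1 UMIs it held 39.7 and 42.1 Col1a2 UMIs.

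Cluster 22, led by genes of dividing cells, had 0, 37 and 55 cells, and chains made up 5.23% and 4.80% of its UMIs in subcritical and critical muscle. Cluster 20 had 8, 6 and 3 cells, and held the cartilage chains Col2a1 (36223, 16002 and 10606 CPM) and Col9a3 (3607, 800.1 and 1483 CPM). Cluster 12 had 28, 6 and 13 cells and the highest Col4a4 level in uninjured muscle, at 166 CPM. Myogenic-like cells, the muscle progenitor class of 23, 97 and 114 cells, held Col26a1 at 0, 120 and 50.5 CPM.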
